A study of Mus musculus with 2 samples.

Results

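The cells described are the tumor cells of a Dll1+ mouse mammary tumor in which at least 1 Dll1 transcript was captured. They were chosen by thresholds on counts of unique molecular identifiers (UMIs, each standing for 1 captured RNA molecule). A barcode needed at least 1000 UMIs, 500 genes and at most 20% mitochondrial UMIs. It also needed at least 1 Epcam UMI, at least 5 UMIs of Krt8 and Krt18 together, fewer than 2 Krt5 UMIs, and none of Cdh5 or Pdgfra. Of 13819 barcodes in the Dll1+ library, 10581 passed the quality limits and 7741 passed the whole gate. Among these, 2318 had a Dll1 UMI and are called Dll1-detected, and 5423 had none and are called Dll1-0. The series held 26916 barcodes in all.

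The study profiled 1 Dll1+ and 1 Dll1- mouse mammary tumor by droplet RNA sequencing (10x Single Cell v3). Both were untreated control tumors with n = 1 each. From each, live cells negative for CD45, the leukocyte surface protein, were sorted after an antibody stain for CD31, CD45 and Ter119. The sources used here give neither the mouse strain, the tumor model and the age of the animals nor how a tumor's Dll1 status was set. With 1 library per tumor, and cells of 1 library not being replicates, no result below has a test or a p-value.

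Dll1 is a membrane ligand that binds Notch receptors on a neighbouring cell. The bound receptor is cut, and its inner fragment joins the DNA-binding protein Rbpj and switches on targets such as the repressors Hes1 and Hey1. In the mammary gland Dll1 is known for its expression in stem and basal cells, where it signals to nearby cells. A cell that carries the ligand is thus the sender of the signal, while target genes report on signals it receives.

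The gate kept most of the cells with a Dll1 UMI. Of 2957 such barcodes that passed the quality limits, 2779 had Epcam, 2557 also met the keratin minimum, 2448 also met the Krt5 limit, 2412 also lacked Cdh5 and 2318 also lacked Pdgfra. Dll1 (ENSMUSG00000014773) lies on the minus strand of mm10 at chr17:15367354-15376872. The gate genes themselves were somewhat lower in Dll1-detected cells. Epcam, a surface protein of epithelium, stood at 1054 CPM (counts scaled to a total of 1000000 UMIs), against 1214 CPM in Dll1-0 cells matched on depth as described below. Krt8, an intermediate filament protein of luminal cells, stood at 2199 against 2693 CPM. Its filament partner Krt18 stood at 2251 against 2584 CPM. All of these were chosen on, so the levels are a description of cells that carry the label's epithelial markers.

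Most Dll1-detected cells rested on a single molecule. Of them 1353 (58.4%) had exactly 1 Dll1 UMI, 488 (21.1%) had 2, 210 (9.06%) had 3 and 267 (11.5%) had 4 or more, up to 16. The cells just inside the threshold, with 1 UMI, had a median depth of 9694 UMIs, and those just outside it, with none, had 8493. Cells with 2 Dll1 UMIs had a median of 11595 and cells with 3 had 13794.5. The Dll1-0 cells include cells that express Dll1 but whose transcripts were not captured.

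Dll1 was detected in 29.9% of gated cells (95% Clopper-Pearson interval 28.9 to 31.0%). Its summed level was 50.1 CPM (exact Poisson interval 48.6 to 51.6). All intervals cover counting error only, which is smaller than the spread between cells. The share followed depth: it was 11.8% in the shallowest decile of total UMIs, 32.8% in decile 5 and 39.6% in the deepest. With every cell thinned to 2000 UMIs, which left out 295 shallower cells, it was 10.3% (9.65 to 11%).

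Fibroblasts, which should lack Dll1, were used to gauge the background of free RNA. Their gate required 0 Epcam UMIs and fewer than 5 of Krt8 and Krt18. It thus left out barcodes with more tumor RNA, so the background given here may be too low. In the Dll1+ library 4 of 197 cells of a fibroblast gate had a Dll1 UMI (2.03%, 0.556 to 5.12%), at a median depth of 9828 UMIs against 9284 in gated tumor cells. After thinning the fibroblast share was 0.515%. The endothelial gate held Dll1 in 12.6% of 190 cells at 31.7 CPM, and the gate for Krt5-positive cells in 55.4% of 397 cells at 79.2 CPM. In the Dll1- tumor 346 of 9132 gated cells had a Dll1 UMI (3.79%, 3.41 to 4.20%), at 3.88 CPM. That share fell to 0.901% after thinning, and 0 of 342 fibroblasts there had one, which allows a share of up to 1.07%. Tumor cells of the Dll1+ library thus had more Dll1 than the fibroblasts that passed this gate, by both the share and the CPM.

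**Figure D1:**
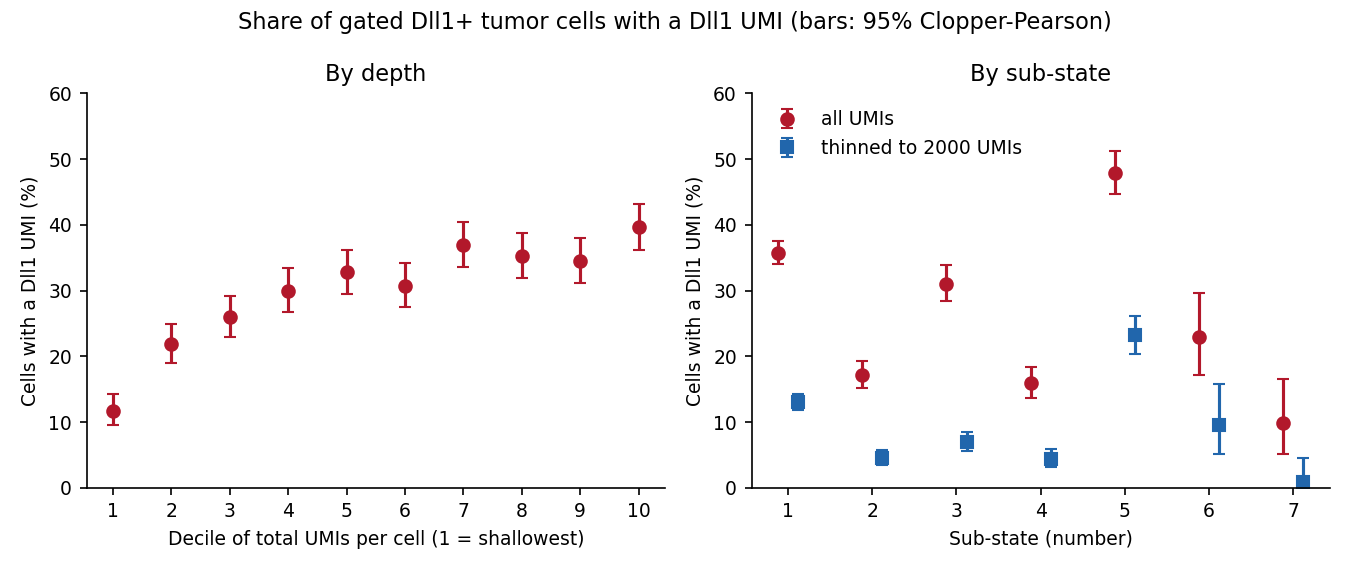
Share of gated Dll1+ tumor cells with a Dll1 UMI, in percent, by decile of total UMIs per cell (left) and by sub-state (right), with 95% Clopper-Pearson bars. The share is 11.8% in the shallowest and 39.6% in the deepest decile, and sub-state 5 has the highest share both with all UMIs (48.0%) and with each cell thinned to 2000 UMIs (23.2%).

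Dll1-detected cells were deeper, with a median of 10918 UMIs and 3177.5 genes against 8493 UMIs and 2676 genes in Dll1-0 cells. The Dll1-0 cells were therefore weighted so that each depth decile had the same share of cells in both groups. After weighting, the mean was 13222 UMIs in Dll1-detected and 12948 in Dll1-0 cells. The mean number of genes was 3326 and 3240, and the mean mitochondrial share 6.18% and 6.08%. UMIs were summed over each group and given as CPM, and ratios are log2 of CPM plus 1, Dll1-detected over Dll1-0.

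Among 10172 genes at 5 CPM or more in either group, 283 were at least 1.5-fold higher in Dll1-detected cells (2.78%) and 169 at least 1.5-fold lower (1.66%). Smaller limits were used for gene lists: 1050 genes were at least 25% higher (10.3%) and 756 at least 20% lower (7.43%), which is the same fold in either direction. The median over all genes was a log2 ratio of 0.01. Changes of 2-fold were few, with 26 genes higher and 38 lower. Of the 283 higher genes, 145 were higher in all 10 depth deciles. Of the 169 lower genes, 92 were lower in all 10. These genes were chosen on the ratio over the same deciles, so this agreement is partly built in.

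**Figure D2:**
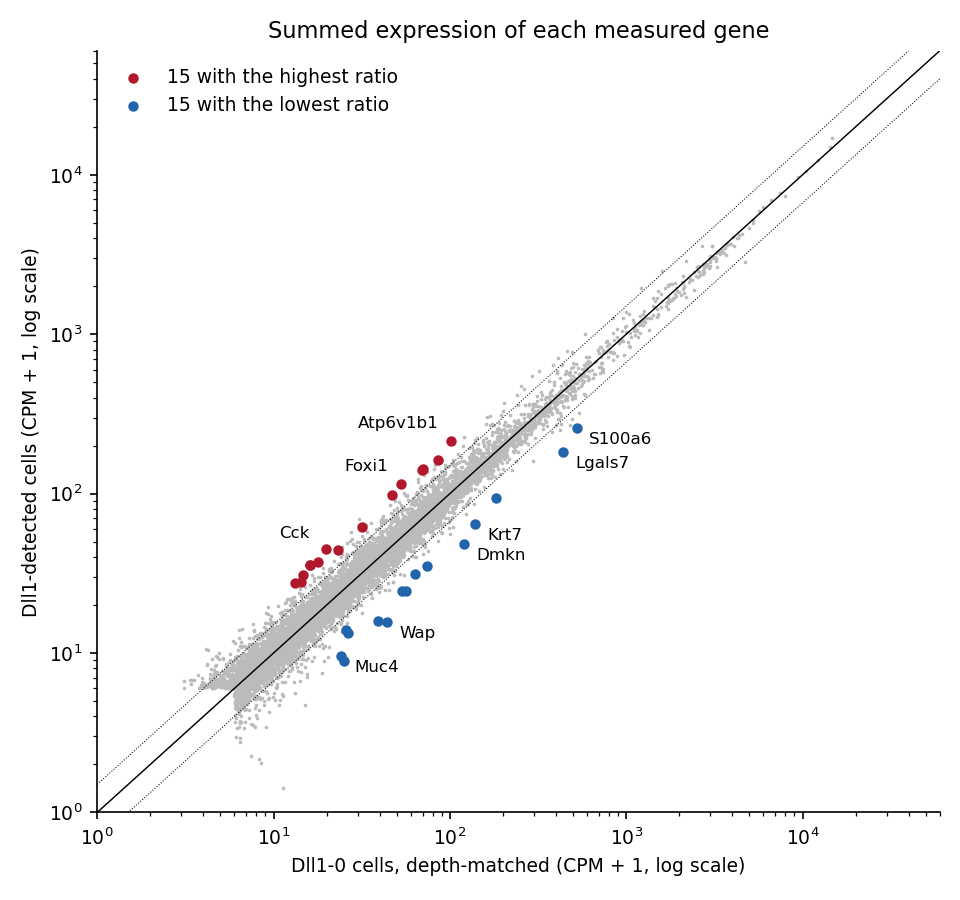
Summed level of each gene with 5 CPM or more in either group, in CPM plus 1 on log axes, in Dll1-detected cells (vertical) against depth-matched Dll1-0 cells (horizontal). The solid line marks equal levels and the dotted lines 1.5-fold; red points are the 15 highest and blue points the 15 lowest ratios among genes at 20 CPM or more, such as Foxi1 at 114 against 51.5 CPM and Lgals7 at 182 against 437 CPM.

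The genes furthest up included a transcription factor and ion transport genes that are known together from other tissues. Foxi1 is the forkhead factor of ionocytes in the airway and of intercalated cells in the kidney, cells rich in the proton pump of the V-ATPase family. Foxi1 (ENSMUSG00000047861, chr11:34204338-34208089, minus strand, mm10) stood at 114 CPM in Dll1-detected cells (110 to 118) and at 51.5 CPM in matched Dll1-0 cells (49.7 to 53.4), a log2 ratio of 1.13. The ratio was above 0 in all 10 depth deciles, from 0.62 to 1.36. A Foxi1 UMI was found in 55.0% of Dll1-detected cells and in 31.6% of matched Dll1-0 cells. With 2000 UMIs per cell the shares were 19.7% and 11.3%. In the fibroblast gate 1 of 197 cells had one.

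Atp6v1b1, a V-ATPase subunit found in such acid-secreting cells (chr6:83742990-83758855, plus strand, mm10), stood at 214 CPM (209 to 220) against 101 CPM (98.6 to 104), a log2 ratio of 1.08. Clic6, of the chloride intracellular channel family, stood at 140 against 68.9 CPM, a log2 ratio of 1.01. Car12, a membrane carbonic anhydrase, stood at 227 against 120 CPM, a log2 ratio of 0.91. For each of these the 2 intervals lay apart and the ratio was above 0 in all 10 deciles.

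A list of 22 ionocyte and intercalated cell genes, drawn up after these values were seen, had 9 genes at 5 CPM or more. Of them 8 were at least 25% higher and none lower, with a median log2 ratio of 0.67, against 10.3% of all genes higher. The list includes Foxi1, Atp6v1b1 and Car12, already named above, so these counts are not independent evidence. Those 8 include Hepacam2, a cell adhesion protein, at 5.03 against 2.12 CPM, and Tfcp2l1, a transcription factor of collecting duct cells, at 52.9 against 34.9 CPM. Several defining genes of these cell types were almost absent. Cftr, the chloride channel, had 3 UMIs, Bsnd, the barttin channel subunit, 1 UMI, and Ascl3, another ionocyte factor, 9 UMIs in all 2318 cells. The cells are therefore not called ionocytes here.

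The V-ATPase as a whole did not share the change. Of 20 measured subunit genes, also listed after values were seen, 3 were at least 25% higher and none lower, and the median was 0.09. They were Atp6v1b1, Atp6v0e2 at 5.42 against 3.54 CPM, and Atp6v0a4, the a4 subunit of acid-secreting cells, at 40.5 against 25.1 CPM. The widely expressed catalytic subunit Atp6v1a stood at 165 against 146 CPM, within the limit.

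The 250 bases before the start of Foxi1 are given because Rbpj, the DNA-binding protein of the Notch pathway, has known letters to look for there (RefSeq, GRCm38.p6, chr11:34208090-34208339, minus strand, the gene's 5′ to 3′ direction). Capitals mark the core letters that Rbpj binds, TGGGAA, searched on both strands.
Foxi1: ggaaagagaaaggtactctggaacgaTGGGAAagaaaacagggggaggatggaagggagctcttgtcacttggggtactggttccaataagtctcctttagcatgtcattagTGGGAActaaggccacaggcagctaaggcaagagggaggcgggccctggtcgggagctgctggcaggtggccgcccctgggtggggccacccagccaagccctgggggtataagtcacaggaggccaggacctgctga
The window held 2 matches, beginning 224 and 138 bases before the start. Of 27025 genes with such a window 24.1% held at least 1, and of the 13 with a window among the 15 genes with the highest ratios 4 did. Of the 4 listed Notch targets with a window, 0 held the letters. The windows of Atp6v1b1, Tspan8 and Dll1 held none. A match is a description of letters, not a binding site, and nothing on Rbpj follows from a window without one.

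The other genes among the 15 with the highest ratios had varied functions. Cck, the gut and brain peptide cholecystokinin, stood at 44.2 against 18.8 CPM, a log2 ratio of 1.19. Syn2, a synaptic vesicle protein, stood at 34.7 against 15.1 CPM (1.15). Tspan8, a tetraspanin of mammary stem and epithelial cells, stood at 34.6 against 15.1 CPM (1.15). These 3 were higher in 9, 10 and 9 of the 10 deciles. The platelet chemokine Pf4 stood at 29.7 against 13.7 CPM, and the neutrophil attractant Cxcl5 at 162 against 84.5 CPM. Cxcl5 was higher in 7 of 10 deciles, and 12% of its UMIs lay in 10 cells.

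Interferon-stimulated genes were higher almost throughout. These genes are switched on in cells that receive an interferon signal. All 14 on the list were measured, 13 were at least 25% higher and none lower, and the median log2 ratio was 0.67. Ifit2, an RNA-binding antiviral protein, stood at 142 CPM in Dll1-detected and 69.1 CPM in Dll1-0 cells (log2 ratio 1.03). Its relative Ifit1 stood at 545 against 290 CPM, and Ifit3 at 470 against 252 CPM. Rsad2, the antiviral enzyme viperin, stood at 591 against 319 CPM. Irf1, at 247 against 204 CPM, was the gene that missed the limit. Ifit1 was higher in all 10 deciles, by 0.41 to 1.41, and Ifit2 in 9. Cmpk2, an interferon-induced nucleotide kinase outside the list, stood at 97.6 against 46.2 CPM.

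Genes of antigen presentation through class I moved with them. Of 9 class I genes, 6 were at least 25% higher and none lower, with a median of 0.36. Nlrc5, the activator of class I genes, stood at 31.5 against 22.5 CPM, while B2m, the light chain of class I molecules, stood at 2105 against 1901 CPM. Of 6 measured class II genes 1 was higher, with a median of 0.24. Cxcl10, a chemokine induced by interferon, stood at 1271 against 837 CPM. Over all 19 measured chemokines and cytokines, 4 were higher and 5 lower, and the median was 0.08. The neutrophil attractant Cxcl1 stood at 318 against 538 CPM, in the opposite direction to Cxcl5.

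The windows of 3 of these genes show the letters that interferon-activated factors bind. The 250 bases before the start are given for Ifit1 (chr19:34640639-34640888, plus strand), Ifit3 (chr19:34583279-34583528, plus strand) and Rsad2 (chr12:26456453-26456702, minus strand), from RefSeq on GRCm38.p6 in each gene's 5′ to 3′ direction. Capitals mark GAAANNGAAA, where N is any base, on either strand.
Ifit1: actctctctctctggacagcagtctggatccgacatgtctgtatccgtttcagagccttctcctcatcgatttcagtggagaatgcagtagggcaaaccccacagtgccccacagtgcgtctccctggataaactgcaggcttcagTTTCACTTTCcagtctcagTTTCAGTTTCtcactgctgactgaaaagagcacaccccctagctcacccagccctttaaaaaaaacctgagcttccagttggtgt
Ifit3: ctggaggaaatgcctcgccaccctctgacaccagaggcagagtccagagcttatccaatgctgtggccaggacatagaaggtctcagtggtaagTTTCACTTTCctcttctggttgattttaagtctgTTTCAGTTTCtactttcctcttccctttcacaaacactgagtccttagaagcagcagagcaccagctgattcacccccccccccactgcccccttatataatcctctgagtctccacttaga
Rsad2: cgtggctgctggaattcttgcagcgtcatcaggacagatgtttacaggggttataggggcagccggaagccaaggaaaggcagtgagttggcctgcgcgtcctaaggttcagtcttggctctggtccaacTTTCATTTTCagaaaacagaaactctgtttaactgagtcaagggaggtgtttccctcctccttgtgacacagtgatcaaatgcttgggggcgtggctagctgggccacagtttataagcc
Ifit1 and Ifit3 held 2 matches each and Rsad2 held 1. Of 11 interferon-stimulated genes with a window, 6 (54.5%) held the letters, against 3.46% of all 27025 genes. The windows of Ifit2 and Cmpk2 held none, and that of Foxi1 held these letters as well. A match does not show a site in use.

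The Notch genes themselves differed little. None of 6 other ligands reached 5 CPM. The ligand Dll4 had a UMI in 3.58% of Dll1-detected cells (2.86 to 4.42%) and in 1.29% of matched Dll1-0 cells, and Jag1 in 1.86% and 3.06%. With 2000 UMIs per cell Dll4 was found in 0.699% (0.40 to 1.13%) and 0.349% (0.207 to 0.551%), so the intervals overlapped at that depth. Of 3 measured receptors none passed the limit in either direction. Notch1 stood at 110 against 88.6 CPM (log2 ratio 0.31), Notch2 at 14.9 against 14.7 CPM and Notch3 at 18.2 against 16.1 CPM. All 15 measured genes of Fringe enzymes, ligand trafficking and receptor cleavage lay within the limits, with a median of 0.08. Mib1, the ligase that Notch ligands need for endocytosis, stood at 45.9 against 43.6 CPM.

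Of 8 measured genes of the Notch transcription complex 1 was higher and none lower, with a median of 0.12. That gene was the coactivator Maml2, at 14.3 against 10.6 CPM. Rbpj, the DNA-binding protein of the pathway, stood at 36.5 against 42.3 CPM.

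Among the Notch targets, 10 were measured: 3 were at least 25% higher, 1 was lower, and the median was 0.12. Hes1, a repressor and direct target, stood at 187 against 147 CPM (log2 ratio 0.34), higher in all 10 deciles. Hey1, of the same family, stood at 18.4 CPM (16.9 to 19.99) against 12.3 CPM (11.4 to 13.3), a log2 ratio of 0.54, higher in 8 of 10 deciles. Sox9, a factor of mammary progenitors, stood at 267 against 212 CPM (0.33). The luminal factor Gata3 stood at 31.0 against 46.0 CPM (-0.55). Nrarp, a feedback inhibitor of Notch, stood at 6.49 against 6.17 CPM. Myc stood at 52.4 against 51.8 CPM.

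**Figure D3:**
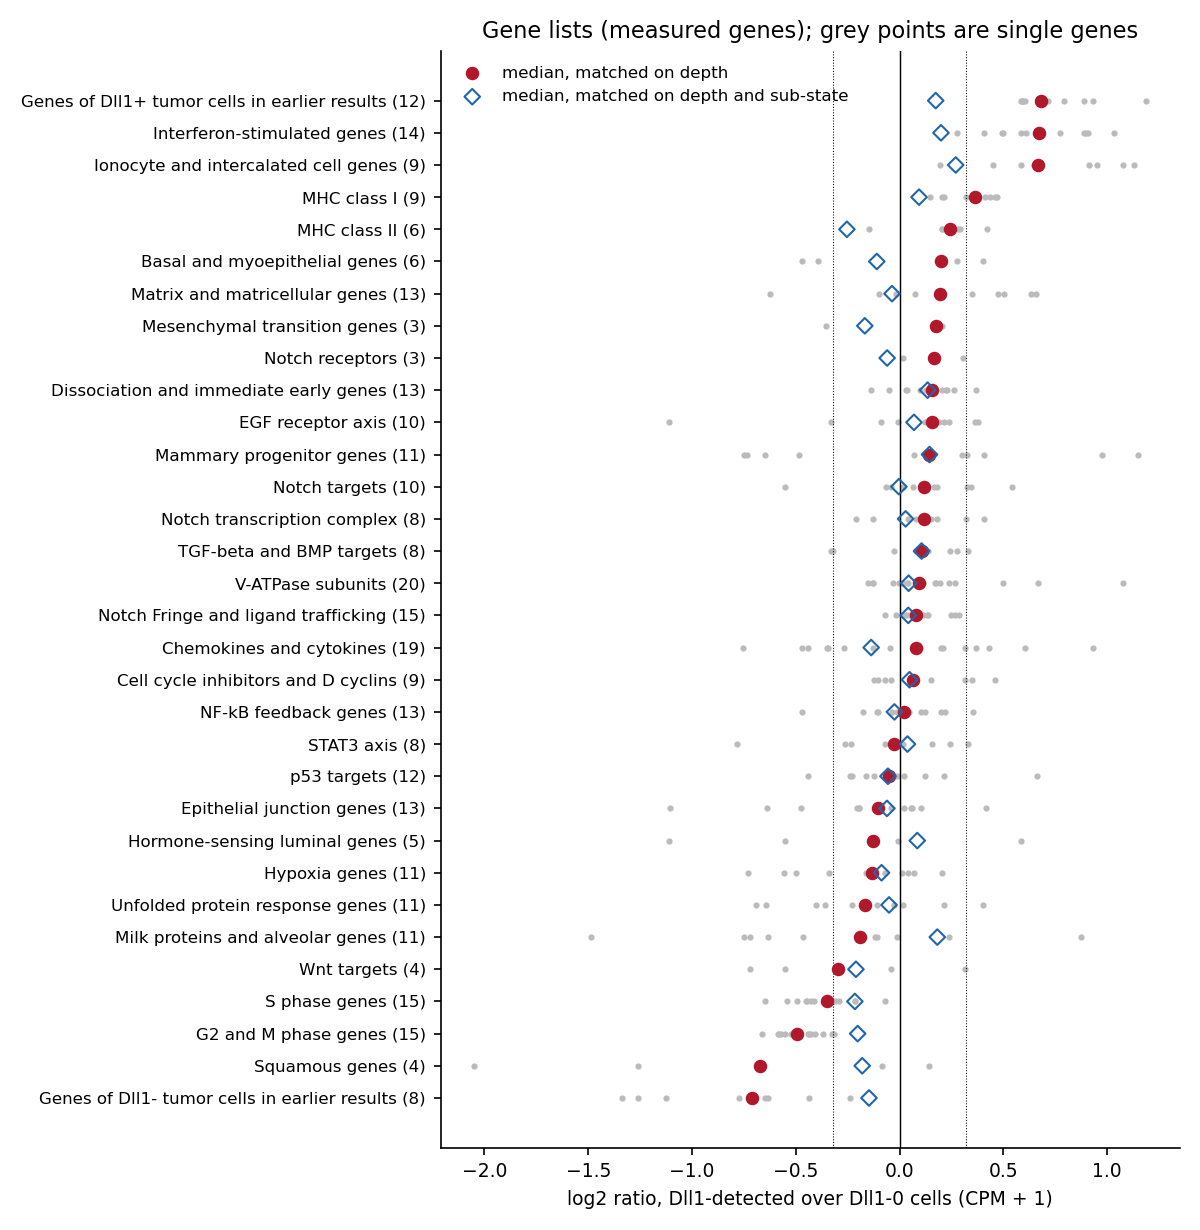
Log2 ratio of Dll1-detected over Dll1-0 cells for the measured genes of each list (grey points; number of genes in brackets), with the list's median matched on depth (red) and on depth and sub-state (blue diamonds). Dotted lines mark the limits of 25% higher and 20% lower. Interferon-stimulated genes (0.67 and 0.20) and G2 and M phase genes (-0.50 and -0.20) lie on opposite sides of 0 under both kinds of matching, and milk protein genes change side (-0.19 and 0.18).

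Proliferation genes were lower in Dll1-detected cells. Of 15 G2 and M phase genes 14 were at least 20% lower and none higher, with a median of -0.50, against 7.43% of all genes lower. Of 15 S phase genes 9 were lower and none higher, with a median of -0.35. Top2a, the topoisomerase of dividing cells, stood at 61.5 against 88.7 CPM. The proliferation antigen Mki67 stood at 49.6 against 67.9 CPM and was lower in all 10 deciles, while Top2a was lower in 8. Aurkb, a mitotic kinase, stood at 13.2 against 21.5 CPM, and Rrm2, a ribonucleotide reductase subunit, at 24.6 against 39.2 CPM. Of 9 cell cycle inhibitors and D cyclins 2 were higher and none lower. Cdkn1b, the inhibitor p27, stood at 65.8 against 51.5 CPM.

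The 15 lowest ratios included genes known from stratified and simple epithelia. Lgals7, a galectin of stratified epithelium, stood at 182 CPM (177 to 187) in Dll1-detected and 437 CPM (432 to 443) in Dll1-0 cells, a log2 ratio of -1.26. Dmkn, the epidermal protein dermokine, stood at 47.6 against 120 CPM (-1.31), and Asprv1, a skin protease, at 7.93 against 24.0 CPM (-1.49). Muc4, a membrane mucin, stood at 8.61 against 23.3 CPM (-1.34). The simple keratin Krt7 stood at 63.8 against 138 CPM (-1.10), and S100a6, a calcium-binding protein, at 258 against 523 CPM (-1.02). All 6 were lower in all 10 deciles. Of 4 measured squamous genes 2 were lower and none higher, with a median of -0.67. In Asprv1, 23.2% of the UMIs lay in 10 cells, against 3.28% in Lgals7.

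Some milk genes were lower. Wap, whey acidic protein, stood at 14.7 CPM (13.4 to 16.1) against 43.1 CPM (41.3 to 44.9), a log2 ratio of -1.49, lower in all 10 deciles. The casein Csn3 stood at 2825 against 4745 CPM. Of 11 measured milk and alveolar genes 5 were lower and 1 higher, with a median of -0.19 that turned to 0.18 when cells were also matched on the sub-states described below. The higher one was Btn1a1, the butyrophilin of the milk fat globule, at 88.7 against 47.9 CPM. Elf5, the alveolar master factor, stood at 208 against 210 CPM.

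Mammary progenitor genes split. Of 11 measured, 4 were higher and 4 lower, with a median of 0.14. Itgb3, the integrin CD61 that marks luminal progenitors, stood at 16.8 against 8.08 CPM (log2 ratio 0.97, higher in all 10 deciles). Kit, a receptor of luminal progenitors, stood at 169 against 127 CPM. Cd44, the hyaluronan receptor, stood at 30.3 against 51.2 CPM, and Aldh1a3, a progenitor enzyme, at 17.8 against 28.4 CPM.

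The other signalling lists moved less. Stat3 stood at 42.5 against 74.0 CPM (-0.78), and of 8 measured genes of its axis 1 was higher and 1, Stat3 itself, lower, with a median of -0.03. Of 13 NF-kB feedback genes 1 was higher and 1 lower (median 0.02), and of 12 p53 targets likewise 1 and 1 (-0.05). Of 11 unfolded protein response genes 4 were lower and 1 higher (-0.17), with Xbp1, the secretory cell factor, at 271 against 424 CPM. Of 11 hypoxia genes 4 were lower and none higher (-0.13). Of 13 dissociation and immediate early genes 1 was higher and none lower (0.16). Of 4 measured Wnt targets 2 were lower and none higher (-0.30), Znrf3 and Tcf7.

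Lists of epithelial identity and of the surrounding matrix were mixed. Of 13 matrix genes 5 were higher and 1 lower (median 0.20), with Sparc, a collagen-binding protein, at 112 against 72.1 CPM, and Timp1, a protease inhibitor, at 13.4 against 21.2 CPM. Of 13 junction genes 1 was higher and 3 lower (-0.10), with the claudin Cldn4 at 241 against 376 CPM and the desmosomal protein Dsp at 98.7 against 73.8 CPM. Of 6 basal and myoepithelial genes 1 was higher and 2 lower (0.20). That median has no firm direction: it went to -0.48 without the barcodes with the highest doublet scores, and it was below 0 also without the stromal-led sub-state, without cells with a UMI of Mki67 or Top2a and with at least 2 Dll1 UMIs required. Of 5 hormone-sensing genes 1 was higher and 2 lower (-0.13). Of 3 mesenchymal transition genes none was higher and 1 lower (0.18, and -0.19 to 0.21 over the alternatives). Among 10 genes of the EGF receptor axis 2 were higher and 2 lower (0.16), with the ligand Areg at 8.42 against 19.3 CPM. Among 8 targets of TGF-beta and BMP 1 was higher and 1 lower (0.11).

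Markers of other cell types were measured beside these. The 7 fibroblast markers summed to 168 CPM in Dll1-detected and 136 CPM in Dll1-0 cells, with Pdgfra at 0 by the gate. Of 5 measured, 3 were at least 25% higher. Their median was 0.64 in cells with 1 Dll1 UMI, 0.07 with 2 and -1.07 with 3 or more. The pericyte markers summed to 60.6 and 43.2 CPM, with Rgs5 at 32.4 against 20.2 CPM and 43.8% of its UMIs in 10 cells. Their median was 0.79, 0.05 and -0.69 in cells with 1, 2 and 3 or more Dll1 UMIs. The sub-state led by stromal genes, described below, held 1.86% of Dll1-detected and 1.63% of depth-matched Dll1-0 cells. Endothelial markers summed to 11.4 and 11.2 CPM, macrophage markers to 11.9 and 25.4 CPM and neutrophil markers to 141 and 235 CPM. Of the neutrophil sum, S100a8 made up 140 and 224 CPM, with a log2 ratio of 0.11 under sub-state matching. S100a9 stood at 0.42 and 10.4 CPM, and Retnlg and Csf3r had 0 and 1 UMIs in Dll1-detected cells. Lymphocyte markers summed to 0.196 and 1.27 CPM, erythroid markers to 0.228 and 0.102 CPM, and the tumor epithelial markers to 8440.2 and 9305 CPM. Markers of Krt5-led cells summed to 348 and 311 CPM, of which Krt14 made up 336 and 291 CPM. The other measured one, Krt79, went the opposite way, with a log2 ratio of -1.06. The median of these 2 was -0.43, both by depth matching alone and with sub-state matching. Barcodes with the highest doublet scores made up 10.9% of Dll1-detected and 6.84% of Dll1-0 cells. The part of these in the results was not tested, but leaving such barcodes out gave 337 genes higher and 233 lower at 1.5-fold.

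Where among the tumor cells Dll1 was found was examined next. The 7741 gated cells were clustered without Dll1 and the gate genes into 7 sub-states, called here by number and leading genes. Sub-state 1 (3027 cells) was led by Prpmp5, Prh1, Nr4a3, Gbp5 and Cxcl10. Sub-state 2 (1376 cells) was led by Saa2, Saa1, Spp1 and Lalba, and sub-state 3 (1158 cells) by the mitotic genes Plk1 and Ccnb1 with Pclaf. Sub-state 4 (981 cells) was led by Areg, Tslp, Krt7 and Lgals3. Sub-state 5 (890 cells) was led by Apoe, Cyp2f2 and Car12, with Foxi1 and Atp6v1b1 among its first 10 genes. Sub-state 6 (187 cells) was led by the stromal genes Rgs5, Col1a2 and Col1a1, and sub-state 7 (122 cells) by Glycam1 with cycling genes.

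Dll1 was spread unevenly over the sub-states. It was detected in 48.0% of cells of sub-state 5 (44.7 to 51.3%) at 149 CPM (140 to 158), and in 35.8% of sub-state 1 (34.1 to 37.5%) at 76.7 CPM. In sub-state 3 the share was 31.1% at 32.3 CPM, in sub-state 2 it was 17.2% at 22.2 CPM, and in sub-state 4 it was 15.9% at 21.2 CPM. The last 2 neighbours in this order had overlapping intervals of CPM. Sub-state 6 had 23.0% at 40.1 CPM and sub-state 7 had 9.84% at 4.91 CPM (2.69 to 8.25), which overlaps the fibroblast background of 1.99 CPM (0.542 to 5.10). After thinning its share was 0.820%, against 0.515% in fibroblasts. With each cell thinned to 2000 UMIs, the share was 23.2% in sub-state 5, 13.0% in sub-state 1 and between 4.37% and 6.93% in sub-states 2 to 4. Median depth differed between sub-states, from 2900 UMIs in sub-state 6 to 20522 in sub-state 7. Sub-state 5 also had the highest median mitochondrial share, 7.69%.

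Dll1-detected cells were thus gathered in 2 sub-states. Sub-state 1 held 46.7% of them against 31.4% of depth-matched Dll1-0 cells, and sub-state 5 held 18.4% against 6.74%. Sub-state 2 held 10.2% against 23.6%, sub-state 4 held 6.73% against 15.3%, sub-state 3 held 15.5% against 18.6% and sub-state 7 held 0.518% against 2.71%.

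The comparison was repeated with Dll1-0 cells weighted by sub-state and depth together. Since the sub-states were built from the same genes, this takes away differences along them by construction. Of 10092 genes at 5 CPM or more under this weighting, 24 were at least 1.5-fold higher (0.238%) and 22 lower (0.218%). At least 25% higher were 222 (2.2%) and at least 20% lower 145 (1.44%). Of the 283 genes higher by depth matching alone, 19 were still at least 1.5-fold higher and 280 kept their sign. Of the 169 lower genes, 14 were still past 1.5-fold and 155 kept their sign. The median ratio of the 283 went from 0.71 to 0.32, and that of the 169 from -0.77 to -0.33.

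Foxi1 was among the genes that stayed past 1.5-fold within sub-states, at 114 against 73.7 CPM (log2 ratio 0.62). It was higher in Dll1-detected cells of all 7 sub-states. In sub-state 5 it stood at 227 CPM (212 to 242) against 163 CPM (146 to 181). In sub-state 1 it stood at 123 against 89.8 CPM, in sub-state 2 at 87.3 against 35.3 CPM, in sub-state 3 at 85.0 against 44.2 CPM and in sub-state 4 at 41.4 against 18.5 CPM. The intervals were apart in each of these 5. Atp6v1b1 was higher in all 7 as well, and its ratio over them was 0.52. In sub-state 5 it stood at 408 against 318 CPM, and in sub-state 3 at 109 against 51.3 CPM. Of the 9 measured ionocyte and intercalated cell genes, 4 were at least 25% higher within sub-states, with a median of 0.27. Atp6v0a4 had a ratio of -0.0008.

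With finer sub-states Foxi1 had 0.58, just under 1.5-fold, and Atp6v1b1 0.48. Some other genes kept a difference within sub-states. Tspan8 had a ratio of 0.89 and was higher in all 7, with 93.5 against 18.7 CPM in sub-state 2. Itgb3 had 0.63, higher in all 7, and Arhgef6, an exchange factor for Rac and Cdc42, had 0.88, at 14.5 against 7.41 CPM. Hey1 had 0.59, but it was higher in 4 sub-states and lower in 3. Its largest gap was in sub-state 2, with 56.4 CPM (48.9 to 64.7) against 17.2 CPM (15.1 to 19.6), while in sub-state 5 it stood at 13.9 against 18.6 CPM with overlapping intervals. Hes1 had 0.07 within sub-states, and the median of the Notch targets was 0.00.

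Differences of the interferon-stimulated genes shrank within sub-states, to a median of 0.20. All 14 were still above 0, and 3 were at least 25% higher. Ifit1 was higher in all 7 sub-states, at 890 against 710 CPM in sub-state 1 and 221 against 111 CPM in sub-state 3. G2 and M phase genes had a median of -0.20 and S phase genes -0.22, with 1 gene lower in each list. In the cycling sub-state 3, Top2a stood at 193 CPM (184 to 203) against 238 CPM (230 to 246). The milk genes changed direction, from -0.19 to 0.18, with Lalba, the lactose synthase subunit, at 0.55, and Wap at -0.72. Class I genes went from a median of 0.36 to 0.09, with all 9 above 0 but within the limits. Cxcl10 went from 0.60 to 0.07. Among single genes lower by depth matching alone, Stat3 went from -0.78 to -0.08 and Cd44 from -0.74 to -0.34. Gata3, Cxcl1 and Xbp1 changed sign, from -0.55, -0.76 and -0.65 to 0.24, 0.10 and 0.06. Class II genes went from 0.24 to -0.25, and to -0.07 with finer sub-states. In sub-state 5 Cd74, the class II invariant chain, stood at 98.1 against 290 CPM and H2-Eb1 at 8.24 against 74.9 CPM. Macrophage markers moved the same way under sub-state matching, with C1qa at -2.15, C1qb at -2.10 and Lyz2 at -2.02, at 23, 24 and 45 UMIs in Dll1-detected cells. Their part in the class II result was not tested.

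Spp1, the matrix protein osteopontin, and the serum amyloid genes Saa1 and Saa2 had the highest ratios within sub-states, 1.48, 1.33 and 1.31. For each, 26.1 to 27.9% of the UMIs lay in 10 cells. With finer sub-states Spp1 went to -0.15. The lowest was Ccl8, at -2.89, with 78.3% of its UMIs in 10 cells.

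**Figure D4:**
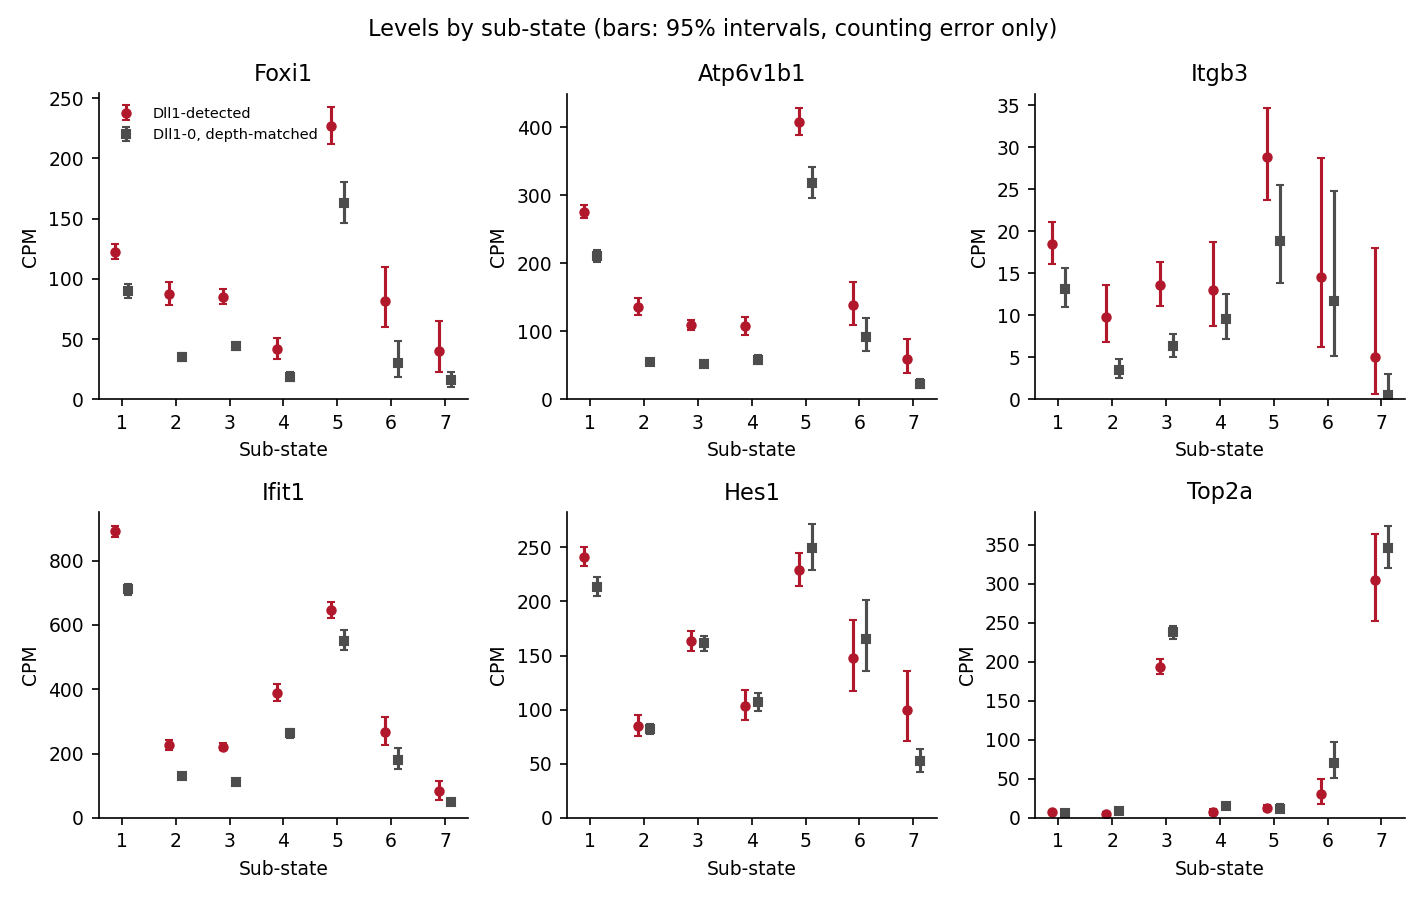
Levels of 6 genes in CPM by sub-state, in Dll1-detected cells (red circles) and depth-matched Dll1-0 cells of the same sub-state (grey squares), with 95% intervals for counting error. Foxi1, Atp6v1b1, Itgb3 and Ifit1 are higher in Dll1-detected cells in all 7 sub-states, Hes1 is near equal in sub-states 2 to 4, and Top2a is lower in sub-state 3 (193 against 238 CPM).

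Several genes, Foxi1 among them, differed more in cells with more Dll1 UMIs. Each class was set against Dll1-0 cells matched to its own depth. Foxi1 stood at 101 against 53.4 CPM in cells with 1 Dll1 UMI, at 120 against 51.4 CPM with 2 and at 135 against 47.7 CPM with 3 or more, log2 ratios of 0.91, 1.21 and 1.48. Atp6v1b1 had 0.89, 1.15 and 1.42, Tspan8 0.92, 1.06 and 1.67, and Itgb3 0.61, 1.05 and 1.55. The ionocyte and intercalated cell list had medians of 0.59, 0.84 and 1.07.

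Of the lower genes, some followed this order and others did not. Lgals7 had ratios of -0.98, -1.37 and -1.88, with 216, 170 and 123 CPM in the 3 classes. Krt7 had -0.94, -1.01 and -1.64. Wap had -1.30, -2.07 and -1.48, Csn3 -0.56, -1.05 and -0.91, and Mki67 -0.35, -0.62 and -0.49, all furthest from 0 in cells with 2 Dll1 UMIs. The interferon-stimulated genes had medians of 0.59, 0.69 and 0.79. The Notch targets showed no such order, with medians of 0.17, 0.08 and 0.10, and neither did Hes1 (0.33, 0.43 and 0.31) or Hey1 (0.50, 0.29 and 0.80). Within sub-states, the interferon-stimulated genes went the other way, with 0.24, 0.15 and 0.13, while Foxi1 still had 0.54, 0.66 and 0.71. The gradients of Lgals7 and Krt7 were much smaller within sub-states. Lgals7 had -0.27, -0.27 and -0.49 there, and Krt7 -0.38, -0.43 and -0.48.

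**Figure D5:**
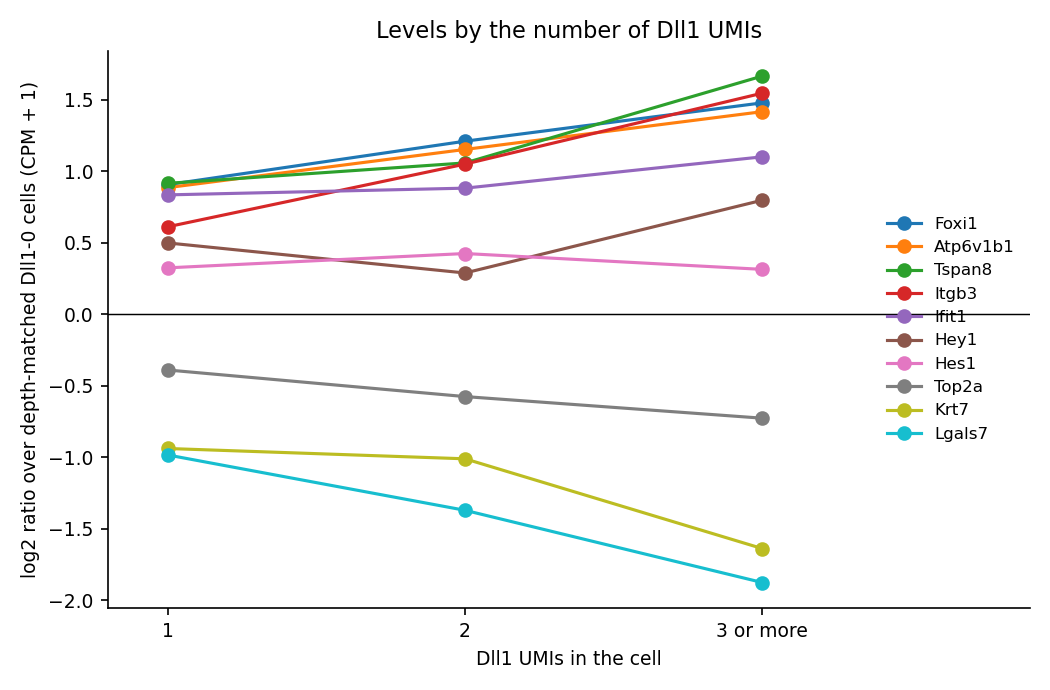
Log2 ratio of Dll1-detected over depth-matched Dll1-0 cells for 10 genes (CPM plus 1) by the number of Dll1 UMIs in the cell: 1, 2, or 3 or more (1353, 488 and 477 cells). Foxi1 goes from 0.91 to 1.48 and Lgals7 from -0.98 to -1.88, while Hes1 stays between 0.31 and 0.43.

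The same gate and contrast were applied to the Dll1- tumor, where 346 cells had a Dll1 UMI. Their median depth was 14347 UMIs, and 2 of them had a barcode that is also in the Dll1+ library. Foxi1 stood at 18.1 CPM (14.8 to 22.0) in these cells and at 5.71 CPM (5.23 to 6.23) in matched Dll1-0 cells, a log2 ratio of 1.51. Atp6v1b1 stood at 22.5 against 8.21 CPM and Clic6 at 28.7 against 5.62 CPM. Of the 9 ionocyte and intercalated cell genes measured in the Dll1+ tumor, 6 were above 0 here, with a median of 0.38. Over the whole gate the level of Foxi1 was 75.2 CPM in the Dll1+ tumor, against 5.89 CPM here. Per the labels' protocols the libraries were single-indexed, and whether reads crossed between them was not tested.

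All 14 interferon-stimulated genes were above 0 in the Dll1- tumor too, with a median of 0.61, and Ifit2 stood at 62.9 against 13.7 CPM. The S phase list had a median of -0.54 and the G2 and M list -0.51. Hey1 stood at 9.06 against 3.08 CPM. Genes among the 15 lowest ratios of the Dll1+ tumor did not all share their direction. Lgals7 stood at 1799 against 1712 CPM, Muc4 at 112 against 102 CPM, and Krt7 at 472 against 356 CPM. Nor did all genes among its 15 highest ratios. In the Dll1- tumor Slc25a29 stood at 2.96 against 2.90 CPM and Grb14 at 2.61 against 2.80 CPM, while Cmpk2 stood at 113 against 39.9 CPM. Tspan8, at 0.523 against 0.769 CPM, and Cck, with 1 UMI in Dll1-detected cells, were near absent there. Cxcl5 had 0 UMIs in those cells. Whether the contrast differs between the tumors was not tested, since each is 1 library.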

How the data were processed

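RNA was counted per gene and droplet barcode in sorted live CD45- cells, from 1 tumor called Dll1+ and 1 called Dll1-. The deposited values are raw UMI counts, which Cell Ranger 4.0.0 produced per the file headers. The build was mm10, per the submitters' processing notes; annotation release and aligner settings are unstated in the sources at hand. The Dll1+ library held 117230907 UMIs (median 5853 per barcode) and the Dll1- library 135960457 (median 8939). The libraries shared 109 barcodes, of which 11 were Dll1-detected cells of the Dll1+ tumor.

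Groups were compared by UMIs summed over cells, as CPM of all UMIs, with Dll1-0 cells weighted to the Dll1-detected cells' deciles of total UMIs. Ratios used a pseudocount of 1 CPM, so they understate the change of low genes. Intervals are exact Poisson for Dll1-detected cells, gamma for weighted sums and Clopper-Pearson for shares. The level of confidence is 95%, and the limit of a share at 0 is the upper Clopper-Pearson bound. The weighting was tested on simulated data with known fold changes. The simulated cells had Poisson counts and no sub-states, so that test does not cover differences between sub-states or extra spread between cells. Sub-states came from scanpy 1.11.5 and leidenalg 0.10.2 (2000 variable genes, 30 components, 15 neighbours, resolution 0.4, or 1 for the finer ones). The fibroblast gate was Pdgfra 1 or more, Col1a1 5 or more, Epcam and Cdh5 0, and Krt8 plus Krt18 under 5. Doublets were kept: scrublet's own threshold marked 0 barcodes and so did not work, and removing the highest scores at 0.8% per 1000 barcodes (896 barcodes) was an alternative. Other alternatives changed the matching, depth, gate, scale (edgeR 4.0.16 for TMM factors only), pseudocount and expression filter. Gene positions came from GENCODE M21, where 32235 of 32285 gene IDs were found, and promoter windows from RefSeq. Python 3.11.15, numpy 2.4.6, scipy 1.17.1, pandas 2.3.3, matplotlib 3.10.9 and R 4.3.3 were used.

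Named genes are the 15 highest and 15 lowest ratios among genes at 20 CPM or more. Left out were Dll1, Xist, Tsix and the gate, mitochondrial, ribosomal protein, Y-linked and unnamed genes. Members of the lists, and genes with the highest ratios within sub-states, are named besides. The cells, the 31 gene lists, the 9 marker lists and the rules were chosen with earlier results of these data known, and 2 lists (ionocyte and V-ATPase genes) were added after the values were seen. Of the list drawn from genes of Dll1+ tumor cells in those earlier results, 12 of 12 were at least 25% higher (median 0.68), and of the 8 measured genes of Dll1- tumor cells 7 were lower (-0.71). Neither is independent evidence. No lists other than these were tried.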

Additional observations from a re-analysis of the deposited data

Results flagged for a closer look

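Krt7 differed in direction between the tumors. Its log2 ratio of Dll1-detected over depth-matched Dll1-0 cells was -1.10 in the Dll1+ tumor, where it was lower in all 10 depth deciles, and 0.41 in the Dll1- tumor. The levels were 63.8 against 138 CPM in the first and 472 against 356 CPM in the second. Matched also on sub-state, the ratio in the Dll1+ tumor was -0.41, with Krt7 higher in 2 sub-states and lower in 5. Cells of the Dll1- tumor were not matched on sub-state. The difference between the tumors was not tested, since each is 1 library.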

How the results depend on the processing

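With no matching, 167 genes were at least 1.5-fold higher, in place of 283. Matching on deciles and sub-state left 24 higher and 22 lower, and finer sub-states, chosen after seeing the data, left 19 and 12, by construction of that weighting. Requiring 2 or more Dll1 UMIs gave 487 higher and 394 lower, and thinning to 2000 UMIs gave 349 lower, in place of 169; the cause was not tested. A pseudocount of 10 CPM gave 91 and 48 and a minimum of 20 CPM gave 164 and 68, while no filter on low counts gave 281 lower, as fewer or more low genes could pass. The share of gated cells with Dll1 was 29.9% and went to 10.3% after thinning, to 31.3% with at most 10% mitochondrial UMIs and to 12.5% with 2 or more Dll1 UMIs required. All 30 named genes kept their direction in the 19 alternatives, and 19 of 32 list medians did; the others (Notch receptors and targets, class II, chemokine, NF-kB, STAT3, milk, hormone-sensing, basal, mesenchymal, matrix, D cyclin and Wnt lists) crossed 0 under at least 1. TMM factors moved ratios by 0.02.

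Each tumor is 1 library, so no value extends beyond these tumors. Depth limits genes under 5 CPM and the other Notch ligands. No paired analysis was possible because each group is 1 library.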
